A study of Mus musculus with 6 samples.

Results

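The genes described here are 47 genes of glutathione metabolism, of the glutathione transferase family and of the response driven by the transcription factor NRF2. They were taken by gene name from a list of members, among the 27021 genes of the deposited table. That rule uses no measured value, but the list was chosen with earlier results of these data known. All 47 were present in the table, and 46 of them passed the filter on low counts and were tested. Whole hearts gave 6 RNA libraries, 1 per mouse: 3 from the genotype *Immt*fl/fl-*Myh6*-MCM and 3 from its control, *Immt*+/+-*Myh6*-MCM. MCM is a Cre recombinase that tamoxifen switches on, and the *Myh6* promoter restricts it to cardiomyocytes. By the labels and the study's text, mice of both groups carried this transgene and received tamoxifen at 6 weeks of age. They were examined after 20 more weeks, when they were 26 weeks old. The study describes the *Immt*fl/fl hearts as failing by then. In *Immt*fl/fl mice the recombinase removes a loxP-flanked exon of *Immt*, which encodes Mic60, a core protein of the MICOS complex that shapes the cristae of mitochondria. Other cells of the heart keep the gene, and the study used both sexes of this line.

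Glutathione is a tripeptide of glutamate, cysteine and glycine, made in the cytosol in consecutive steps and then carried into mitochondria. It is used by peroxidases to remove peroxides, by transferases to conjugate reactive molecules, and it is returned to its reduced form with NADPH. NRF2, encoded by *Nfe2l2*, is held at a low level by KEAP1 and, when released, binds antioxidant response elements of genes for glutathione synthesis, NADPH supply and detoxification. In heart muscle these enzymes are known mainly for their part in removing the peroxides and superoxide that the respiratory chain gives off.

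Depth ran from 42301627 to 44151674 counts for the control libraries and from 49793058 to 53251529 counts for the *Immt*fl/fl libraries. *Immt* fell from 663, 453 and 524 CPM (counts scaled to a common library size after TMM normalization) to 23.0, 28.7 and 39.2 CPM, so the targeted gene was low in every library labelled *Immt*fl/fl. Counts assigned to *Esr1*, whose ligand-binding sequence is part of MCM, were 144479 to 165400 in control hearts against 71 to 323 in *Immt*fl/fl hearts. A difference in the transgene and the deletion of *Immt* thus cannot be told apart here. That both groups carried MCM is known from the labels and the study's text only. Why these counts were low in *Immt*fl/fl hearts was not tested. Summed over 8 cardiomyocyte markers, none of them absent, the level was 72672 to 76714 CPM in control hearts against 31820 to 42902 CPM in *Immt*fl/fl hearts. In whole tissue, fewer cells of a type and less RNA per cell cannot be told apart. *Immt*fl/fl replicate 3 and control replicate 3 expressed *Xist* (20811 and 11605 counts, against 4 to 16 in the other hearts), the transcript of the inactive X chromosome. *Immt*fl/fl replicate 3 also had lower summed levels than the other *Immt*fl/fl hearts for macrophage markers (242 CPM against 521 and 598) and erythroid markers (444 CPM against 1483 and 1485), and the part of this in the results below was not tested.

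The 3 genes for making glutathione and *Gsr*, which reduces it, rose in *Immt*fl/fl hearts, and so did 3 of 5 members of NADPH supply and the pentose phosphate pathway. Transferases moved in both directions. A gene is said to have risen or fallen where its adjusted p was under 0.05 and its log2 fold change (log2FC, *Immt*fl/fl against control) was over 1 or under -1. By this rule 16 of the 46 members (34.8%) rose, against 9.91% of the 17146 genes tested, and 6 members (13.0%) fell, against 10.6%. Scaled by total counts only, which moves the median of all genes by 0.25, 20 members rose and 4 fell, and the split over all genes went from 1699 higher and 1818 lower to 2541 and 1241. With the adjusted p alone, 23 members were higher (19.9% of all genes) and 10 were lower (18.5%). The hearts of the groups did not overlap for 25 members that were higher (26.9% of all genes) and 11 that were lower (26%), where 52.8% of all genes had no overlap in either direction. The median log2FC was 0.57 over the members and 0.00 over all genes. Among the 26 members that are not transferases, 12 rose, 1 fell and the median log2FC was 1.09. Among the 20 tested transferases, 4 rose, 5 fell and the median was 0.00.

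**Figure D1:**
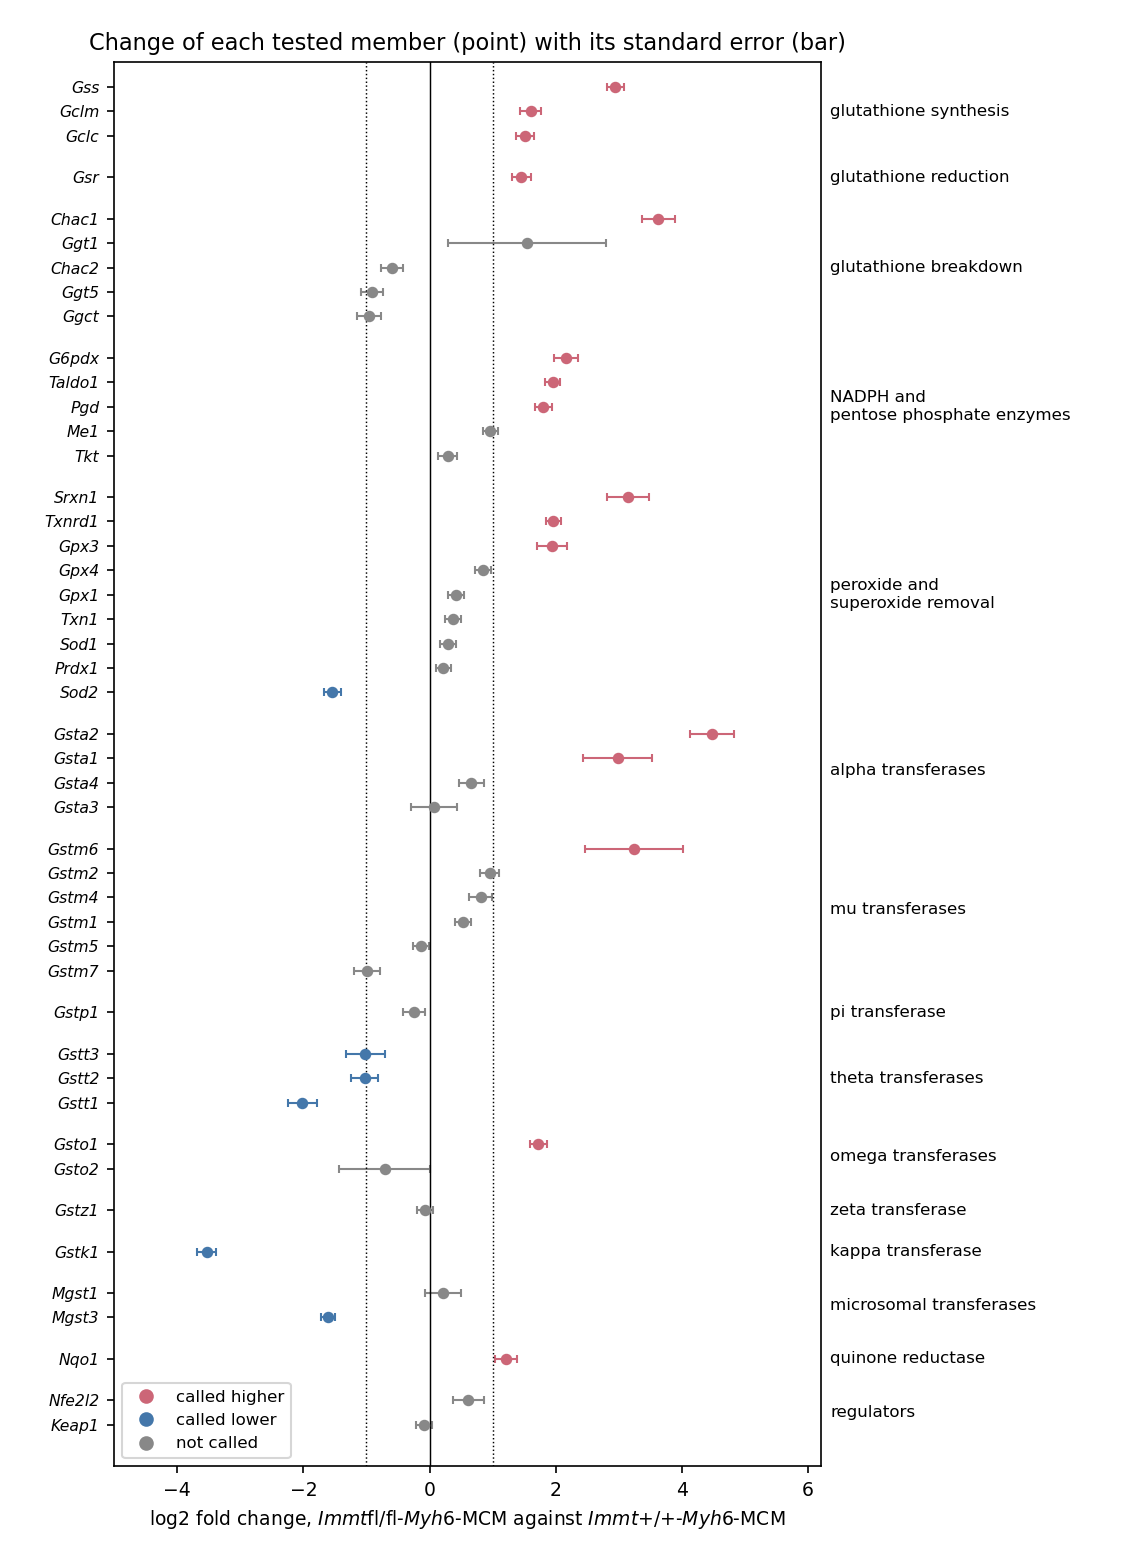
Log2 fold change of each of the 46 tested members (points) with its standard error (bars), *Immt*fl/fl-*Myh6*-MCM against *Immt*+/+-*Myh6*-MCM hearts, grouped by role. Dotted lines stand at a log2FC of -1 and 1. The 3 synthesis genes lie between 1.52 and 2.94, and the transferases range from -3.53 for *Gstk1* to 4.47 for *Gsta2*.

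Promoter windows were read to show which members that rose carry the letters that NRF2 is known to bind near a start. RefSeq windows (build GRCm38.p6, 250 bases before to 50 after a start) were at hand for 42 of the 47 members. A gene with several windows was counted where any of them held a match. The core of the antioxidant response element was searched as TGACNNNGC on both strands and was found in 15 of these 42 members (35.7%), against 14.0% of all 27025 genes with a window. It was present in 5 of the 14 members that rose, in 0 of the 5 that fell and in 10 of the other 23. The sites of the members that rose are given below on the gene's own strand, with the core in capitals. *Pgd* carries the core as written and the others carry its reverse complement.
*Gclm*, chr3:122245413-122245441: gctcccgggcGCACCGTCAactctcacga
*G6pdx*, chrX:74428919-74428947: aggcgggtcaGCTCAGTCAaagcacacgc
*Pgd*, chr4:149166061-149166089: atttcagagcTGACATTGCactgatcgga
*Srxn1*, chr2:152105542-152105570: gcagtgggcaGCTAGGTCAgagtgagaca
*Txnrd1*, chr10:82859104-82859132: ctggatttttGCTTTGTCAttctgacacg
For *Pgd* and *Txnrd1* the match lies in the window of an inner start, and the window at the outermost start of the gene holds none. The matches of *Pgd* (3 to 11 bases after the start) and *Srxn1* (28 to 36 bases after it) lie in transcribed sequence. The other matches printed above lie before the start. A match describes these letters only, and elements farther from the start were not searched.

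Among these, *Srxn1* held the most matches, since its window also carries the AP-1 motif TGAGTCA at 2 places. That motif, searched on both strands, was found in 6 of the 42 members (14.3%) and in 5.95% of all genes, and in *Me1* and *Prdx1* it overlaps a match to the response element core. The whole window of *Srxn1* is shown because this gene had the largest change of the members with a core match, with all 3 matches in capitals.
*Srxn1*, chr2:152105274-152105573: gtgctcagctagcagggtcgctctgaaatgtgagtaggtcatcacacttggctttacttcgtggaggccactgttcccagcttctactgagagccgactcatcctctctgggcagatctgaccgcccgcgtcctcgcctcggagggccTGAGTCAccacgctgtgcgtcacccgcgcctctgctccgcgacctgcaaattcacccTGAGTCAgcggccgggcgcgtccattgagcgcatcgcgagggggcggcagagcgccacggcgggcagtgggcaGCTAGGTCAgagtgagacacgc
The C/EBP-ATF motif TGCATCA, known from genes that ATF4 controls, was found in 3 of the 42 members (7.14%, against 3.63% of all genes), and *Chac1* was the one among the members that rose. Its site lies 192 to 186 bases before the start.
*Chac1*, chr2:119351040-119351066: tccctgccgtTGCATCActcctgccag

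All 3 genes of glutathione synthesis rose. *Gclc*, the catalytic subunit of glutamate-cysteine ligase, which makes the rate-limiting step, had 22.1, 23.3 and 21.02 CPM in control hearts and 57.9, 56.4 and 75.9 CPM in *Immt*fl/fl hearts. *Gclm*, its modifier subunit, had 48.5, 37.2 and 44.4 CPM in control hearts and 111, 123 and 161 CPM in *Immt*fl/fl hearts. Every *Immt*fl/fl heart was above every control heart for both subunits, with a log2FC of 1.52 for *Gclc* (SE 0.145, adjusted p = 7.09e-05 from edgeR) and 1.60 for *Gclm* (SE 0.168, adjusted p = 1.17e-04). *Gss*, glutathione synthetase, which adds glycine in the last step, had 13.1, 14.0 and 14.1 CPM in control hearts and 108, 91.5 and 117 CPM in *Immt*fl/fl hearts. It changed the most of the 3 (log2FC 2.94, SE 0.135, adjusted p = 1.51e-06), a 7.68-fold rise with no overlap between the groups. *Gss* lies on chromosome 2 of GRCm38 from 155563181 to 155592810 and overlaps *Acss2* on the opposite strand, whose log2FC was 0.22 (adjusted p = 0.315). The sources used here do not give the strand setting of the counting.

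The balance of synthetase and ligase differed between the groups. In CPM, *Gclc* was above *Gss* in every control heart and below it in every *Immt*fl/fl heart. Per length, as FPKM (fragments per kilobase of gene length, scaled for library size), *Gclc* stood at 2.34 to 2.66 times *Gss* in control hearts and at 0.844 to 1.02 times in *Immt*fl/fl hearts. The FPKM ratio of *Gclc* to *Gclm* was 0.763 to 1.05 in control hearts against 0.765 to 0.870 in *Immt*fl/fl hearts, so the hearts of the groups overlapped in the balance of the ligase subunits. These ratios are descriptions of 3 hearts a group, with no test. FPKM makes levels comparable between genes only where counts come from the whole transcript, and whether the oligo-dT libraries described in the labels do this was not tested, here or for the other levels given per length.

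*Gsr*, glutathione reductase, which returns oxidized glutathione to its reduced form with NADPH, also rose. Its level was 20.7, 25.4 and 20.5 CPM in control hearts and 53.8, 60.6 and 68.6 CPM in *Immt*fl/fl hearts (log2FC 1.46, SE 0.144, adjusted p = 8.39e-05 from edgeR). The highest control heart was thus below the lowest *Immt*fl/fl heart.

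**Figure D2:**
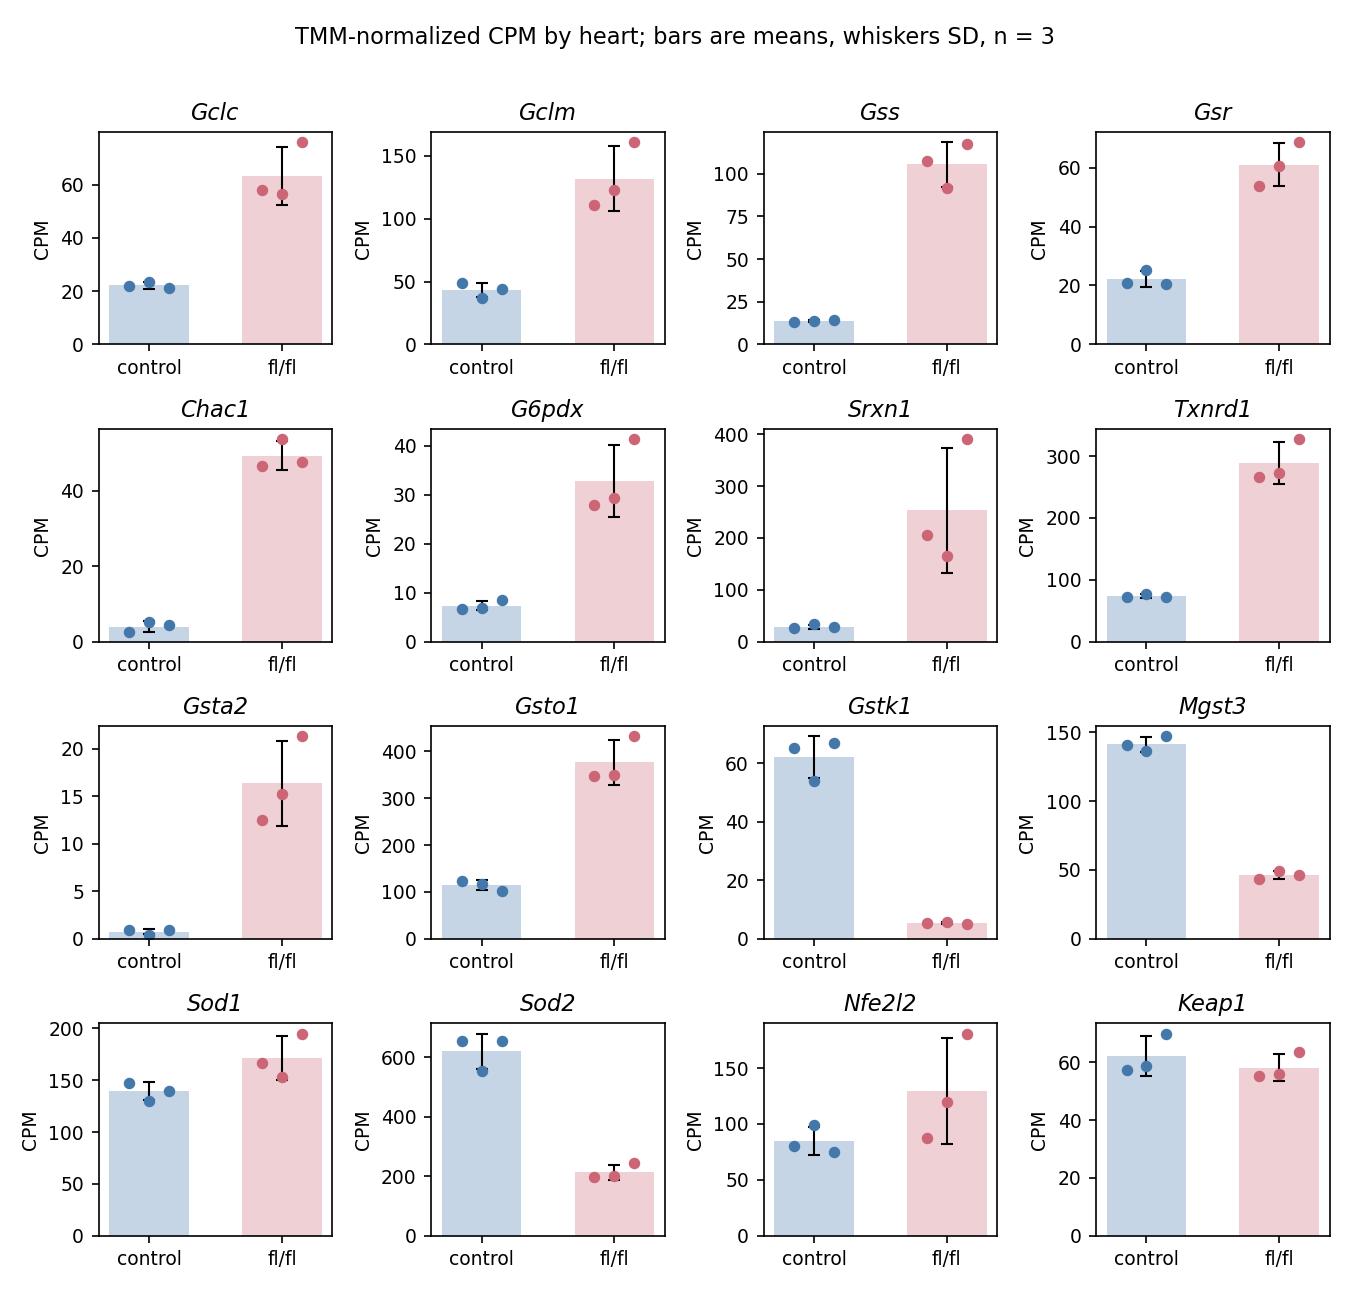
TMM-normalized CPM of 16 members in each heart (points), with the group mean (bars) and SD (whiskers), n = 3 a group. The groups are apart for *Gclc*, *Gclm*, *Gss* and *Gsr*, which were higher, and for *Gstk1*, *Mgst3* and *Sod2*, which were lower in *Immt*fl/fl hearts, and they overlap for *Nfe2l2* and *Keap1*.

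Of the 5 genes of glutathione breakdown, *Chac1* rose and none fell. *Chac1*, which encodes a cytosolic gamma-glutamylcyclotransferase that splits glutathione and is a known target of ATF4, had 2.41, 5.26 and 4.28 CPM in control hearts and 46.6, 53.6 and 47.6 CPM in *Immt*fl/fl hearts. This was a 12.3-fold rise (log2FC 3.63, SE 0.265, adjusted p = 2.1e-05 from edgeR), and the *Immt*fl/fl hearts lay within 1.15-fold of each other. *Chac2*, a slower enzyme of the same kind, had means of 10.8 CPM in control hearts and 7.14 CPM in *Immt*fl/fl hearts (log2FC -0.59, adjusted p = 0.0267). The paralogs thus had opposite signs, and their hearts did not overlap in either case. *Chac2* overlaps *Asb3* on the opposite strand, which held 2570 counts over all hearts against 2480 for *Chac2* and had a log2FC of 0.20. Without a strand setting, the reads of *Chac2* and *Asb3* cannot be told apart in the overlap. *Ggct*, which acts on the gamma-glutamyl amino acids released later in the cycle, had 14.96, 12.5 and 11.2 CPM in control hearts and 6.70, 5.96 and 7.27 CPM in *Immt*fl/fl hearts (log2FC -0.95, SE 0.190, adjusted p = 0.00382), just short of the fold threshold. *Ggt5*, a cell surface gamma-glutamyl enzyme, was likewise lower without reaching it (means of 15.8 and 8.41 CPM, log2FC -0.91, adjusted p = 0.00358). *Ggct* and *Ggt5* pass it with upper-quartile scaling or without control replicate 3, and *Ggct* also without *Immt*fl/fl replicate 3. *Ggt1*, which starts the breakdown of glutathione outside the cell, was near the limit of detection, with 0, 0 and 10 counts in control hearts and 19, 20 and 3 counts in *Immt*fl/fl hearts, and no difference was detectable at this depth.

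The enzymes that make NADPH in the oxidative arm of the pentose phosphate pathway rose together. *G6pdx*, glucose-6-phosphate dehydrogenase, which opens the pathway, had 6.67, 6.92 and 8.43 CPM in control hearts and 27.9, 29.4 and 41.3 CPM in *Immt*fl/fl hearts (log2FC 2.16, SE 0.197, adjusted p = 5.38e-05 from edgeR). *Pgd*, the other dehydrogenase of this arm, had 24.3, 24.7 and 28.5 CPM in control hearts and 88.8, 79.9 and 102 CPM in *Immt*fl/fl hearts (log2FC 1.80, SE 0.135, adjusted p = 1.87e-05). No hearts of the groups overlapped for either gene. *G6pdx* overlaps *Ikbkg* on the opposite strand, which held 18329 counts over the 6 hearts against 6401 for *G6pdx* and had a log2FC of 0.49.

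In the arm that recycles sugars, the members differed. *Taldo1*, transaldolase, had 58.8, 54.5 and 61.2 CPM in control hearts and 217, 247 and 213 CPM in *Immt*fl/fl hearts (log2FC 1.96, SE 0.119, adjusted p = 6.24e-06 from edgeR). *Tkt*, transketolase, which works beside it, had 26.5 to 33.1 CPM in control hearts against 32.0 to 41.8 CPM in *Immt*fl/fl hearts, and its difference did not pass the test (log2FC 0.29, adjusted p = 0.154). *Me1*, the cytosolic malic enzyme, was among the most abundant members per length and had means of 176 and 342 CPM (log2FC 0.96, SE 0.119, adjusted p = 2.97e-04). It was the nearest to the fold threshold of the members that were higher without passing it, and it passes it without control replicate 1, without *Immt*fl/fl replicate 1 or when only total counts are used for scaling. Of 50-base stretches of *Me1* transcripts, 22.9% also occur in other genes, with 21.1% in *Gm7049*, so some of its counts are uncertain.

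Among the enzymes that remove peroxides and superoxide, 3 rose and 1 fell of 9. *Srxn1*, sulfiredoxin, which repairs overoxidized peroxiredoxins, had 25.3, 33.3 and 27.1 CPM in control hearts and 205, 165 and 390 CPM in *Immt*fl/fl hearts (log2FC 3.15, SE 0.330, adjusted p = 2.81e-04 from edgeR). Its rise was 8.88-fold, and *Immt*fl/fl replicate 3 stood 2.37-fold above the lowest heart of its group. *Txnrd1*, the cytosolic thioredoxin reductase, had 72.7, 77.1 and 71.9 CPM in control hearts and 266, 272 and 327 CPM in *Immt*fl/fl hearts (log2FC 1.96, SE 0.126, adjusted p = 7.75e-06). *Txn1*, the thioredoxin that it reduces, had means of 44.8 and 58.0 CPM, a difference that did not pass the test (log2FC 0.37, adjusted p = 0.0515). *Prdx1*, a thioredoxin-dependent peroxidase and a substrate of sulfiredoxin, had means of 241 and 281 CPM (log2FC 0.22, adjusted p = 0.171).

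Glutathione peroxidases differed in size of change. *Gpx3*, the secreted form, had 113, 211 and 136 CPM in control hearts and 584, 685.5 and 489 CPM in *Immt*fl/fl hearts (log2FC 1.94, SE 0.239, adjusted p = 3.83e-04 from edgeR). *Gpx4*, which reduces lipid peroxides in membranes, had 274, 260 and 317 CPM in control hearts and 485, 486 and 560 CPM in *Immt*fl/fl hearts (log2FC 0.85, SE 0.128, adjusted p = 8.57e-04). *Gpx1*, the common cytosolic and mitochondrial form, had 33.3, 35.4 and 37.5 CPM in control hearts and 52.4, 47.2 and 42.0 CPM in *Immt*fl/fl hearts (log2FC 0.41, SE 0.126, adjusted p = 0.0272). All 3 were higher without overlap, and the last 2 stayed under the fold threshold. Per length, *Gpx4* had the highest mean of the 47 members in control hearts (152 FPKM, against 78.6 for *Gpx3*). In *Immt*fl/fl hearts *Gpx3* had the highest mean (301 FPKM, against 276 for *Gpx4*). This order did not hold in *Immt*fl/fl replicate 3, with 253 FPKM for *Gpx3* and 305 FPKM for *Gpx4*. Of 50-base stretches of *Gpx4* transcripts, 34.7% also occur in the pseudogene *Gpx4-ps2*, so some of its counts are uncertain.

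The superoxide dismutases parted. *Sod2*, the manganese enzyme of the mitochondrial matrix, had 655.5, 553 and 654.6 CPM in control hearts and 196, 201 and 243 CPM in *Immt*fl/fl hearts, which left 34.3% of the control mean (log2FC -1.54, SE 0.137, adjusted p = 4.74e-05 from edgeR). *Sod1*, the copper-zinc enzyme found mainly in the cytosol, had 148, 130 and 140 CPM in control hearts and 166, 153 and 195 CPM in *Immt*fl/fl hearts (log2FC 0.30, SE 0.127, adjusted p = 0.0905). The FPKM of *Sod2* was 1.68 to 1.86 times that of *Sod1* in control hearts against 0.467 to 0.521 times in *Immt*fl/fl hearts, so the order of the pair per length differed between the groups. Without the division by length, in CPM, *Sod2* was above *Sod1* in every heart. For *Sod2*, 21.04% of 50-base stretches also occur in other genes. *Sod2* fell beside the cardiomyocyte markers, of which 5 of 8 fell, and the part of cell content in its change was not tested.

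**Figure D3:**
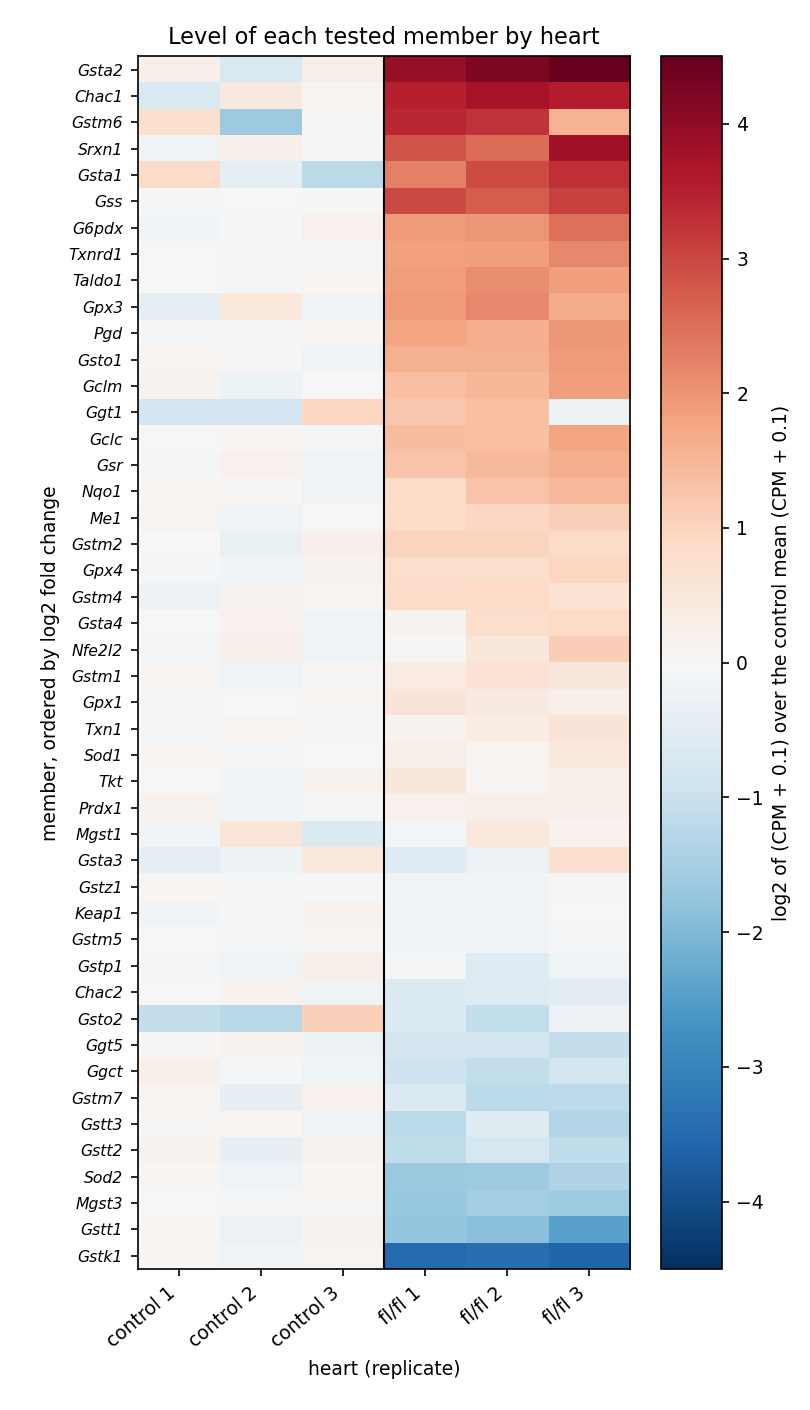
Level of each of the 46 tested members in each heart, as the log2 of its CPM (plus 0.1) over the control mean (plus 0.1), in color, with members ordered by log2FC. Control hearts stay pale except for low-count members such as *Gstm6* and *Gsto2*, and the 16 members that rose are red in all 3 *Immt*fl/fl hearts.

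Alpha transferases, which are known from liver as enzymes that conjugate electrophiles and reduce lipid peroxides, held the largest rise of all members. *Gsta2* had 0.883, 0.421 and 0.904 CPM in control hearts and 12.5, 15.3 and 21.3 CPM in *Immt*fl/fl hearts, a 22.2-fold rise (log2FC 4.47, SE 0.348, adjusted p = 2.29e-05 from edgeR). *Gsta1* had 2.49, 0.992 and 0.513 CPM in control hearts and 6.72, 10.8 and 14.0 CPM in *Immt*fl/fl hearts (log2FC 2.98, SE 0.550, adjusted p = 0.00347). These genes are near-copies: 49.8% of 50-base stretches of *Gsta2* and 90.5% of those of *Gsta1* also occur in other genes, and 75.7% of those of *Gsta1* occur in *Gm3776*, so how their counts divide among them is uncertain. *Gsta4*, which acts on the lipid peroxidation product hydroxynonenal, was far more abundant (52.5 to 67.9 CPM in control hearts against 67.1 to 113 CPM in *Immt*fl/fl hearts), and its hearts overlapped (log2FC 0.66, adjusted p = 0.0254). *Gsta3* had a log2FC of 0.07 (adjusted p = 0.898), and its sign changed when single hearts were left out. The 2 hepatocyte markers measured, of 6 listed, summed to 0.780 to 1.46 CPM in *Immt*fl/fl hearts against 0 to 0.496 CPM in control hearts, and the part of this in the change of *Gsta1* and *Gsta2* was not tested.

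The 6 mu transferases lie in a cluster on chromosome 3 of GRCm38, between 107895821 and 108044894, and did not share a direction. The span holds 10 genes of the table, among them *Gstm3*, which is not a member, lies between *Gstm6* and *Gstm2* and rose on counts of 13 to 19 in *Immt*fl/fl hearts against 1 to 2 in control hearts (log2FC 2.88, adjusted p = 0.018 from edgeR). *Gstm6* rose from 0.669, 0.0496 and 0.391 CPM to 4.84, 4.33 and 1.31 CPM (log2FC 3.24, SE 0.777, adjusted p = 0.0111 from edgeR), on counts of 2 to 25 in control hearts against 72 to 285 in *Immt*fl/fl hearts. Its lowest *Immt*fl/fl heart, replicate 3, still lay above every control heart. *Gstm1*, the most abundant transferase of this class, had means of 172 and 248 CPM (log2FC 0.52, adjusted p = 0.00917). *Gstm2* (means of 64.8 and 125 CPM, log2FC 0.95, adjusted p = 0.00118) and *Gstm4* (means of 9.15 and 16.04 CPM, log2FC 0.81, adjusted p = 0.00713) were higher without passing the fold threshold. *Gstm7*, which lies next to *Gstm6*, had a log2FC of -0.99 (means of 24.6 and 12.4 CPM, adjusted p = 0.0055). It passed the fold threshold with upper-quartile scaling, with the strict filter and without control replicate 2 or *Immt*fl/fl replicate 1, and *Gstm2* did so with total counts only and without control replicate 3 or *Immt*fl/fl replicate 3. *Gstm5* had a log2FC of -0.14 (adjusted p = 0.423). In their order along the chromosome, the members *Gstm5*, *Gstm7*, *Gstm6*, *Gstm2*, *Gstm1* and *Gstm4* thus gave -0.14, -0.99, 3.24, 0.95, 0.52 and 0.81.

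The 3 theta transferases, which lie within 63.3 kb on chromosome 10 and act on small halogenated and peroxide substrates, were all lower. *Gstt1* had 16.8, 13.2 and 17.5 CPM in control hearts and 4.70, 4.19 and 2.85 CPM in *Immt*fl/fl hearts, or 24.8% of the control mean (log2FC -2.01, SE 0.237, adjusted p = 2.22e-04 from edgeR). *Gstt2* had 16.7, 11.3 and 16.4 CPM in control hearts and 6.70, 8.41 and 6.62 CPM in *Immt*fl/fl hearts (log2FC -1.03, SE 0.211, adjusted p = 0.0044). *Gstt3* had 3.88, 4.07 and 3.37 CPM in control hearts and 1.58, 2.56 and 1.45 CPM in *Immt*fl/fl hearts (log2FC -1.02, SE 0.313, adjusted p = 0.0291). No hearts of the groups overlapped for any of the 3. The calls of *Gstt2* and *Gstt3* were lost when some hearts were left out. *Gstt2* missed the fold threshold without control replicate 1 or 3 or *Immt*fl/fl replicate 1 or 3 (log2FC up to -0.94). *Gstt3* lost its call when any control heart was left out, or *Immt*fl/fl replicate 1 or 3 (adjusted p = 0.0597 to 0.0909). The log2FC of *Gstt3* ran from -1.31 to -0.86 when single hearts were left out.

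Of the omega transferases, 1 rose. *Gsto1*, which has thiol transferase and dehydroascorbate reductase activity, had 122.8, 117 and 102 CPM in control hearts and 348, 350 and 432 CPM in *Immt*fl/fl hearts (log2FC 1.72, SE 0.137, adjusted p = 2.59e-05 from edgeR). *Gsto1* overlaps *Cfap43* on the opposite strand, which also rose (log2FC 2.05, adjusted p = 0.00775) and held 17.6% as many counts, so without a strand setting their reads cannot be told apart in the overlap. *Gsto2* had 0.375, 0.322 and 1.98 CPM in control hearts and 0.543, 0.366 and 0.725 CPM in *Immt*fl/fl hearts, with no difference detectable at this depth (log2FC -0.71, adjusted p = 0.473). It overlaps *Cfap43* too, which held 13581 counts over all hearts against 200 for *Gsto2*, so the same limit applies to its counts.

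*Gstk1*, the kappa transferase of mitochondria and peroxisomes, had 65.2, 53.9 and 66.9 CPM in control hearts and 5.34, 5.73 and 4.99 CPM in *Immt*fl/fl hearts. It was 11.6 times lower, with 8.63% of the control mean left (log2FC -3.53, SE 0.148, adjusted p = 1.1e-06 from edgeR), the largest fall of the members. Of the 8 cardiomyocyte markers, *Pln* had the lowest log2FC, at -2.15, and the part of cell content in the change of *Gstk1* was not tested. The promoter window of *Gstk1* is shown as that of the member that fell the most, and none of the 3 motifs was found in it.
*Gstk1*, chr6:42245685-42245984: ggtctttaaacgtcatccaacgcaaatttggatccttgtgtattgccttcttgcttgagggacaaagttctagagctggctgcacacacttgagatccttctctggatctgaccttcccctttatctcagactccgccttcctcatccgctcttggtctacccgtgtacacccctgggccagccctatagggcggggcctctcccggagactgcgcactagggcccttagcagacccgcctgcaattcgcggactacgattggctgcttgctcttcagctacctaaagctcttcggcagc

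Of the microsomal transferases, which sit in membranes, *Mgst3* fell from 141, 136 and 147 CPM to 43.5, 49.4 and 46.5 CPM (log2FC -1.61, SE 0.112, adjusted p = 1.22e-05 from edgeR). *Mgst1* had means of 27.2 and 31.4 CPM and overlapping hearts (log2FC 0.21, adjusted p = 0.602). *Mgst2* was the member left out of the test, with 4, 2 and 16 counts in control hearts and 11, 10 and 0 counts in *Immt*fl/fl hearts. Its depth-scaled ratio was 0.671 (95% exact binomial interval 0.351 to 1.28, counting error only), so no difference was detectable. *Gstp1*, the pi transferase (log2FC -0.25, adjusted p = 0.284), and *Gstz1*, the zeta transferase of tyrosine breakdown (log2FC -0.08, adjusted p = 0.666), did not pass the test, and 33.7% of 50-base stretches of *Gstp1* also occur in *Gstp2*.

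Summed over the 21 transferases, the level was higher in *Immt*fl/fl hearts and its make-up differed. The summed FPKM was 550, 514 and 554 in control hearts and 602, 666 and 702 in *Immt*fl/fl hearts, each of the latter above each of the former. *Gsto1* made up 10.5%, 10.9% and 8.6% of this sum in control hearts and 27.1%, 25.0% and 29.3% in *Immt*fl/fl hearts. It was the most abundant transferase in *Immt*fl/fl replicates 1 and 3, and in replicate 2 *Gstm1* was (26.1%). *Mgst3* made up 21.7% to 22.6% in control hearts against 5.66% to 6.32% in *Immt*fl/fl hearts. The share of *Gstk1* went from 6.68% to 7.56% in control hearts down to 0.454% to 0.557%. Theta transferases together made up 2.26% to 2.7% in control hearts against 0.512% to 0.780% in *Immt*fl/fl hearts. The mu class held 31.9% to 35.3% in control hearts against 36.3% to 42.3% in *Immt*fl/fl hearts, and it was the largest class in every heart. The shares are descriptions with no test. Members such as *Gsta1*, *Gsta2*, *Gstp1* and *Gstm1* enter them with the uncertainty of their shared sequence. For *Gstm1*, 18.9% of 50-base stretches also occur in other genes. *Gsto1* enters them with the uncertainty of its overlap with *Cfap43*.

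**Figure D4:**
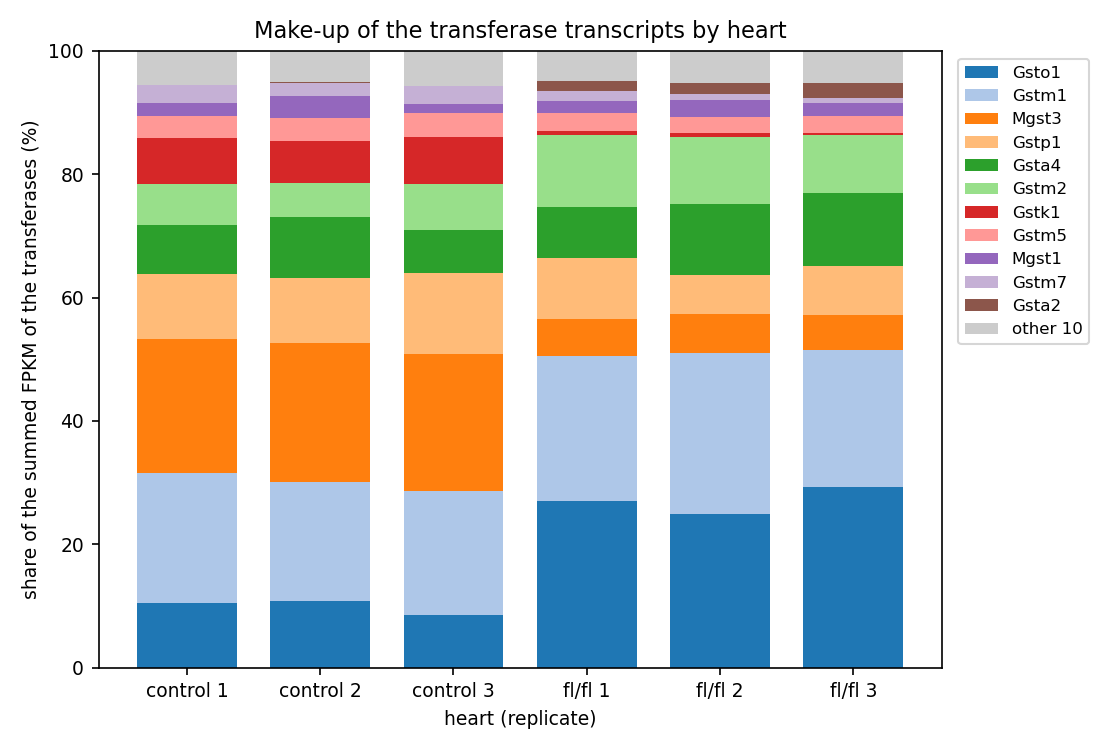
Share of each transferase in the summed FPKM of 21 transferase members, in percent, for each heart. The 11 genes that reached 2% in any heart are drawn singly and the other 10 together. *Gsto1* grows from 8.6% to 10.9% in control hearts to 25.0% to 29.3% in *Immt*fl/fl hearts, while *Mgst3* and *Gstk1* shrink.

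*Nqo1*, the quinone reductase used most widely as a sign of NRF2 activity, rose from 77.8, 76.6 and 66.0 CPM to 130, 180 and 201 CPM (log2FC 1.21, SE 0.168, adjusted p = 5.44e-04 from edgeR). The genes for NRF2 and its inhibitor did not pass the test. *Nfe2l2*, which encodes NRF2, had 79.9, 98.8 and 75.1 CPM in control hearts and 87.3, 120 and 181 CPM in *Immt*fl/fl hearts (log2FC 0.61, SE 0.247, adjusted p = 0.0829). Its lowest *Immt*fl/fl heart lay within the control range, and its *Immt*fl/fl hearts spread 2.07-fold. The log2FC of *Nfe2l2* ran from 0.30 to 0.84 when single hearts were left out, and the adjusted p was under 0.05 without *Immt*fl/fl replicate 1 (0.0115 from edgeR), with total counts only (0.017) and with DESeq2. *Keap1*, its inhibitor, had 57.5, 58.9 and 70.0 CPM in control hearts and 55.2, 56.0 and 63.5 CPM in *Immt*fl/fl hearts (log2FC -0.09, SE 0.126, adjusted p = 0.594). NRF2 is known to be governed mainly through the stability of its protein, which these counts do not measure.

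Most members varied little among hearts of a group. In control hearts, the highest heart was less than 1.5-fold above the lowest for 37 of the 46 tested members, and in *Immt*fl/fl hearts for 34. The highest *Immt*fl/fl heart was replicate 3 for 26 of the 46 (56.5%), against 39.2% of all tested genes. Among the members that rose it was replicate 3 for 12 of 16 (75%), against 45.7% of all genes that rose. It was the highest for *Gclc*, *Gclm*, *Gss*, *Gsr*, *G6pdx*, *Pgd*, *Srxn1*, *Txnrd1*, *Gsta1*, *Gsta2*, *Gsto1* and *Nqo1*, as well as for *Nfe2l2*. Replicate 3 is the *Xist*-expressing heart with the low macrophage and erythroid marker sums. It was the highest for T cell markers (21.4 CPM against 1.80 and 1.74 in the other *Immt*fl/fl hearts), of which *Cd3e* alone had 20.9 CPM, and neutrophil markers (11.9 CPM against 3.26 and 2.18), and the part of these in its higher levels was not tested. Without it, 17 members rose and 5 fell, and with a term for *Xist* expression the numbers were 16 and 6.

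Other genes of these pathways were counted on 8 lists, which share some genes, over the genes of each that were tested. The shares to set beside the counts of every list are those over all genes tested, of which 9.91% rose and 10.6% fell. Of 33 other NRF2 targets, 14 rose and 1 fell, with a median log2FC of 0.86. They included *Hmox1*, heme oxygenase (11.2, 7.98 and 7.90 CPM in control hearts and 82.9, 57.3 and 110 CPM in *Immt*fl/fl hearts), *Akr1b8*, an aldo-keto reductase (log2FC 2.49), and *Sqstm1*, a cargo receptor of autophagy that also binds KEAP1 (log2FC 2.31). Of 23 regulators of NRF2, 5 rose and 1 fell (median 0.11), among them *Mafk* (log2FC 1.96) and *Maff* (2.24), small MAF proteins that bind DNA as partners of NRF2. Of 17 ferroptosis genes, 6 rose and 2 fell (median 0.65), including the ferritin light chain *Ftl1* (log2FC 1.86).

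Of 18 genes of cysteine supply, 5 rose and 1 fell, with a median log2FC of 0.15. *Slc7a11*, the cystine importer whose product limits glutathione synthesis, had 0, 0 and 6 counts in control hearts and 3681, 2831 and 5557 counts in *Immt*fl/fl hearts. *Slc3a2*, its partner in the membrane, rose too (27.4, 51.8 and 29.9 CPM in control hearts and 206, 205 and 215 CPM in *Immt*fl/fl hearts), and so did the neutral amino acid carrier *Slc1a4* (log2FC 3.60). *Mpst*, a sulfurtransferase that breaks down cysteine, fell (log2FC -1.64). Of 17 genes of glutathione breakdown and export, 6 rose and 1 fell (median 0.61). Those that rose included *Esd*, which frees glutathione from S-formylglutathione (log2FC 2.73), and the exporter *Abcc4* (log2FC 2.11). Another was *Slc25a39*, which carries glutathione into mitochondria (82.6, 84.1 and 102 CPM in control hearts and 339, 302 and 350 CPM in *Immt*fl/fl hearts).

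Like the lists above, the remaining ones held calls in both directions. The next list held 22 other genes of NADPH metabolism and linked pathways, among them the NADPH oxidase genes *Nox4*, *Cyba*, *Cybb* and *Nox1*. Of these 22 genes, 3 rose and 4 fell, with a median log2FC of -0.11. Those that rose were the mitochondrial folate enzymes *Mthfd2* (log2FC 6.52), *Mthfd1l* (3.70) and *Aldh1l2* (3.21), and *Me3*, a mitochondrial malic enzyme, was among those that fell (log2FC -1.20). Of 30 other thiol peroxidases, thioredoxins and related genes, 2 rose and 2 fell (median 0.22), against 9.91% and 10.6% of all genes. *Sesn2*, a sestrin induced by ATF4 and NRF2, rose from 4.44, 4.07 and 4.99 CPM to 74.5, 76.1 and 81.4 CPM (log2FC 4.10), whereas *Sesn1* fell (log2FC -1.05). *Msrb2*, a methionine sulfoxide reductase of mitochondria, fell as well (log2FC -2.65). Of 13 other transferases and related genes, 4 rose and 2 fell (median 0.53). Besides *Gstm3*, those that rose were the tRNA synthetase genes *Mars* (log2FC 1.64) and *Vars* (1.42) and the chloride intracellular channel gene *Clic4* (1.00).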

How the data were processed

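Heart RNA of 6 mice was analysed from a deposited table of all genes. The labels describe oligo-dT capture, molecular identifiers and tagmentation, and the study's methods name an Illumina NovaSeq run, and neither says if reads or molecules were counted. The submitters' processing notes name the builds GRCm38 and mm10 and the tools edgeR 4.0.16, Subread 2.1.1 with featureCounts, SAMtools 1.22.1 and STAR 2.7.11, with no strand setting. The raw counts that the authors deposited entered every test. The FPKM values that the authors deposited, per kilobase of their gene length, were used to compare levels between genes. The authors also deposited a signal (counts over a size factor), log2 fold changes and p-values of their own comparison, none of which were used.

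Of 27021 genes, 17146 passed filterByExpr (minimum count 10, minimum total 15). Groups were compared with the quasi-likelihood test of edgeR 4.0.16 in R 4.3.3 after TMM normalization (factors 0.884 to 0.939 in control and 1.04 to 1.14 in *Immt*fl/fl hearts), with Benjamini-Hochberg adjustment over all genes tested. The thresholds are those of the study's methods. SE is the log2FC over the square root of F. The procedure was tested on simulated data. An exact permutation test of 3 hearts against 3 cannot go below p = 0.1, so none is given. P-values set each group difference against the spread between these mice, with a variance that edgeR estimates in part from all genes.

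Groups came from the labels. Same-numbered hearts did not deviate together (correlations of -0.0739 to 1.69e-04 across genes), so replicate numbers were taken as names. Alternatives were RLE, upper-quartile and total-count scaling, DESeq2 1.42.0, a filter at a mean of 1 CPM or none at all, a replicate block, an *Xist* term, no mitochondrially encoded genes, no fold threshold and leaving out each heart. The members and gene lists were chosen with earlier results of these data known. All members are accounted for. Values in every heart are given for members that rose or fell, for the synthesis, reductase, NRF2, superoxide dismutase and peroxidase genes named in the text and for members under 10 counts, and at most 4 genes that rose or fell, with the smallest p, are named from each list. Coordinates are those of the file, and 45 of 47 members match GENCODE M21 (GRCm38). Shared sequence was measured as 50-base stretches of its transcripts, and 13 members overlap a gene on the opposite strand.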

Additional observations from a re-analysis of the deposited data

How the results depend on the processing

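Of the 22 members that passed the thresholds, 20 did so under all 15 alternatives that refit the data, and *Gstt2* and *Gstt3* did not. Members that rose numbered 16 to 20 and those that fell 4 to 9 across these alternatives, and 16 to 17 and 4 to 6 when single hearts were left out. With no fold threshold, 10 members fell, and over all genes 3418 were higher and 3172 lower, because that alternative asks less of a gene. With the replicate number as a block, which the pairing check did not call for, 16 members rose and 6 fell, and over all genes 1574 and 1682 did. Upper-quartile factors moved the median log2FC of all genes by -0.10 and gave 9 members that fell, adding *Ggct*, *Ggt5* and *Gstm7*. Scaling by total counts moved it by 0.25, added *Me1*, *Gpx4*, *Gstm2* and *Gstm4* to those that rose and took away *Gstt2* (log2FC -0.77) and *Gstt3* (-0.76). Under that scaling the sign turned for *Gstm5* (0.12), *Gstp1* (0.0017), *Gstz1* (0.18) and *Keap1* (0.15), none of which passed the test. The log2FC of *Gsta3* was -0.032 with upper-quartile factors and ran from -0.40 to 0.39 when single hearts were left out, turning without control replicate 1 (-0.10) or 2 (-0.03) and without *Immt*fl/fl replicate 3. That of *Gsto2* then ran from -1.11 to 0.64 and that of *Mgst1* from -0.034 to 0.58, both turning without control replicate 3. Of the other genes named, *Sesn1*, *Me3* and *Clic4* lost their call in some settings and kept their sign. The cause of these changes was not tested. Depth limited *Mgst2*, *Ggt1* and *Gsto2*, with 200 counts or fewer over all hearts.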
